A study of Mus musculus with 6 samples.

Results

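Receptors with which myeloid cells recognise microbes and tissue damage were followed in whole eyeballs of newborn mice, 3 from Brg1 conditional knockout (cKO) pups and 3 from wild-type pups. The group holds 9 genes: the Toll-like receptors Tlr2 and Tlr4 with the co-receptor Cd14, the C-type lectin receptors Clec4d, Clec4e, Clec4n and Clec7a, and the formyl peptide receptors Fpr1 and Fpr2. Of these, 8 had a probe set that the array annotation assigns to them alone, 11 probe sets in all, among 12393 genes measured in this way. Fpr1 had none and was not analysed here. Each gene was read from the probe set chosen by its highest mean log2 value over the 6 arrays. The genes themselves were grouped with genotype differences of these same arrays known, so their differences are given as a description, and no p-value refers to the group.

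All 6 samples were eyeballs at postnatal day 1 from mice of mixed background, 1 array each. The Brg1 cKO pups carried homozygous floxed Brg1 alleles and the Le-Cre transgene, and the labels call the controls wild type. Le-Cre works in surface ectoderm of the head, from which lens, cornea and eyelid epithelium arise. The study names floxed mice without Cre as controls of its knockout work and wild-type littermates for the arrays, so whether the controls here carried floxed alleles is not settled. The study reports that Le-Cre mice looked like wild-type mice. No Le-Cre control was on these arrays, so effects of the transgene and of Brg1 loss on the RNA values cannot be told apart. The study also reports germline deletion of Brg1 in some Le-Cre mice, and whether blood cells of these pups kept the gene was not measured.

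Toll-like receptors are membrane proteins that bind microbial molecules and signal through the adaptor MyD88 to NF-kB. CD14, which has no signalling domain of its own, hands bacterial lipopolysaccharide to TLR4 and its partner MD-2, and lipopeptides to TLR2. The C-type lectin receptors bind sugars and glycolipids of fungi and mycobacteria, and Clec4e (Mincle) also binds material from dead cells. Clec4d, Clec4e and Clec4n (Dectin-2) signal with the FcR gamma chain, Clec7a (Dectin-1) through a motif in its own tail, and both routes lead to the kinase SYK and the adaptor CARD9. Formyl peptide receptors sense peptides from bacteria and mitochondria and direct the migration of neutrophils and monocytes. In the eye these receptors are best known from resident macrophages and microglia and from leukocytes that enter the cornea and uvea during infection.

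The sequences upstream of 4 receptors are shown, 3 C-type lectin receptors and Fpr2, chosen for their large differences and for a motif match in each. Windows of Tlr2 and Fpr1 were searched as well, and those of Cd14, Clec4n and Tlr4 were not used here. In the RefSeq order of protein-coding genes (assembly GRCm38.p6), Clec4n, Clec4d and Clec4e are direct neighbours, Clec7a lies between Clec1a and Olr1, and Fpr1 and Fpr2 are neighbours. Each sequence is the 250 bases before the RefSeq start on the gene's own strand, 5′ to 3′, and capitals mark matches to 1 of 5 motifs searched on both strands. Clec4d is chr6:123261857-123262106 (+), Clec4e is chr6:123289872-123290121 (-), Clec7a is chr6:129472780-129473029 (-), the first of 2 windows listed for that gene, and Fpr2 is chr17:17887574-17887823 (+).
Clec4d: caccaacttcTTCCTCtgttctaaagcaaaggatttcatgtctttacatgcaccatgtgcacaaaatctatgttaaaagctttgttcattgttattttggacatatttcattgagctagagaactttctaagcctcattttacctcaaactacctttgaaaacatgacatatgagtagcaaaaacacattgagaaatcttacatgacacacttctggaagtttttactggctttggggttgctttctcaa
Clec4e: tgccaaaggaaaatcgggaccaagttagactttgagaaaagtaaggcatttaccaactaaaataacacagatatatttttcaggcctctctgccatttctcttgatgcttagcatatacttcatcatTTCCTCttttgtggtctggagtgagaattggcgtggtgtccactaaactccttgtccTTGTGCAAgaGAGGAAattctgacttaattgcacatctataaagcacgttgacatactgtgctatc
Clec7a: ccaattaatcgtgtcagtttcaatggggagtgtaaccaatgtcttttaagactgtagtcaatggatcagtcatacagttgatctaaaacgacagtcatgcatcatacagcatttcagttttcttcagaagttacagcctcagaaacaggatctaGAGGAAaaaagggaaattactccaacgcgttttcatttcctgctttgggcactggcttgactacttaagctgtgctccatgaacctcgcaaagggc
Fpr2: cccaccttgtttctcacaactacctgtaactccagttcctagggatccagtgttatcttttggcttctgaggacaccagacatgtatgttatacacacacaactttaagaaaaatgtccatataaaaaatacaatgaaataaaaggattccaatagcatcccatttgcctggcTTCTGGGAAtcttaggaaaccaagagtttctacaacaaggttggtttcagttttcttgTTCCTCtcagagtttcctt

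The motifs were the core GAGGAA of PU.1, the ETS factor of myeloid cells, TTGCNNAA for C/EBP factors, TGANTCA for AP-1, TTCNNNGAA for STAT factors, and the NF-kB site. The PU.1 core stood in 4 of the 6 windows searched, those shown, with its first base at -240 in Clec4d, at -123 and -56 in Clec4e, at -96 in Clec7a and at -19 in Fpr2, counted from the start. It is a short motif that 23.3% of the 32851 windows of the same length hold. Clec4e had a C/EBP match at -66, a motif in 9.56% of windows, and Fpr2 had a STAT match at -77, a motif in 7.02%. AP-1 (6.75% of windows) and NF-kB (7.25%) had no match in these 4 windows. In the Tlr2 window (chr3:83841609-83841858, strand -) NF-kB matched at -173 and, overlapping it, at -172, with none of the other motifs, and the Fpr1 window held none of the 5. These matches describe the letters of the windows and were not tested against the expression values.

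Cd14 and 3 of the other receptors, Clec4d, Clec4e and Fpr2, rose in Brg1 cKO eyeballs, with folds from 26.0 to 70.1 on the linear scale. The remaining 4, Clec4n, Clec7a, Tlr2 and Tlr4, did not pass the threshold of a limma adjusted p under 0.05 over all 22626 probe sets. At this threshold 0 fell. At an unadjusted limma p under 0.05, 7 were higher and 0 lower, against 5.56% and 3.74% of all genes. All 8 differences were positive, from 0.36 for Tlr4 to 6.13 for Clec4d on the log2 scale, with a median of 4.21 against 0.02 over all genes. Over all genes, 0.428% rose and 0.266% fell by the same threshold. In 7 of the 8 genes every Brg1 cKO array lay above every wild-type array, which held for 8.46% of all genes. Because these contrasts chose the genes, nothing is read from the counts. Whole eyeballs were measured, so more cells of a type and more RNA per cell cannot be told apart.

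**Figure D1:**
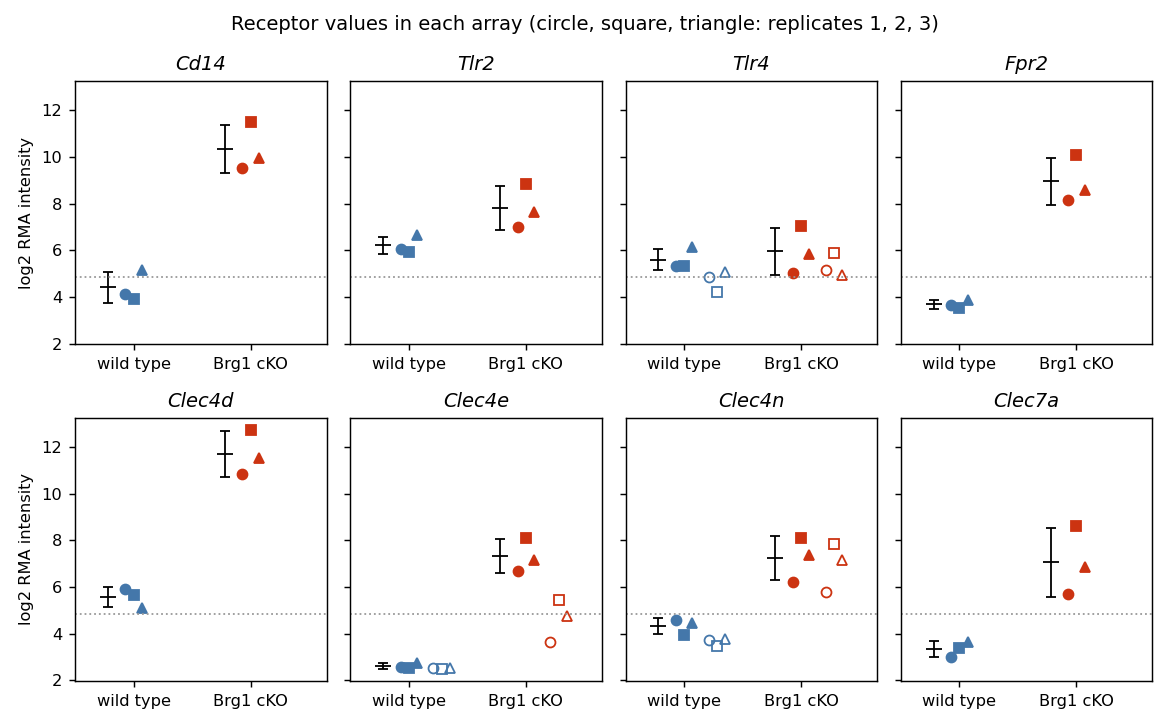
Log2 intensity (RMA, y axis) of the 8 measured receptors in wild-type and Brg1 cKO arrays. Filled symbols are the probe set with the highest mean and open symbols the other probe set of the gene, bars are mean ± SD of the filled symbols (n = 3), and the dotted line is the 25th percentile of all values (log2 4.84). The groups are apart in every panel except Tlr4, and replicate 2 (square) is the highest Brg1 cKO array throughout.

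Among the Toll-like receptor genes the co-receptor had the largest difference. Cd14 (1417268_at) had log2 values of 4.12, 3.93 and 5.17 across wild-type arrays (replicates 1, 2 and 3), against 9.54, 11.50 and 9.94 across Brg1 cKO arrays (replicates 1, 2 and 3, in this order throughout). Every Brg1 cKO array was more than 4 log2 units above the highest wild-type array, with a gap of 4.37. The means were 4.41 ± 0.67 and 10.33 ± 1.04 (SD, n = 3), a difference of 5.92 (SE 0.55, 95% confidence interval 4.64 to 7.21) or 60.6-fold, with a limma adjusted p of 0.00824. The wild-type mean was under log2 4.84, the 25th percentile of the table, where array signals are compressed and folds can be understated.

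Tlr2 (1419132_at), the receptor for bacterial lipopeptides, read 6.07, 5.95 and 6.64 across wild-type arrays, against 6.99, 8.84 and 7.63 across Brg1 cKO arrays. The groups did not overlap, but their nearest values were only 0.35 apart. The log2 difference was 1.60 (SE 0.46, interval 0.53 to 2.68), from 6.22 ± 0.37 to 7.82 ± 0.94 (SD, n = 3), with a limma adjusted p of 0.33.

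Tlr4 (1418162_at), the signalling receptor for lipopolysaccharide, read 5.35, 5.33 and 6.13 across wild-type arrays, against 5.01, 7.04 and 5.83 across Brg1 cKO arrays. The groups overlapped: Brg1 cKO replicate 1 was the lowest of the 6 arrays and Brg1 cKO replicate 2 the highest. The log2 difference was 0.36 (SE 0.50, interval -0.82 to 1.53, limma adjusted p = 0.899), and without Brg1 cKO replicate 2 it was -0.18. The other Tlr4 probe set (1418163_at) read 4.86, 4.22 and 5.07 against 5.15, 5.89 and 4.95, again with overlap, a difference of 0.61 (limma adjusted p = 0.699). CD14 and TLR4 act in 1 recognition complex, but their differences from the wild-type mean were far apart in the same arrays, by 5.72, 5.66 and 5.31 log2 units over the 3 Brg1 cKO arrays. With the first Tlr4 probe set this gap varied little between the 3 arrays (SD 0.22), while Cd14 and Tlr4 themselves each had an SD above 1. The other Tlr4 probe set had an SD of 0.50 over the Brg1 cKO arrays and was lowest in replicate 3. The gap was not computed with it, so the small spread of the gap is shown for 1 Tlr4 probe set only. Ly96, which encodes MD-2, differed by 0.47 with a limma adjusted p of 0.546.

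Of the C-type lectin receptors, 2 of 4 rose. In all 4 every Brg1 cKO array lay above every wild-type array, against 8.46% of all genes. Clec4d (1420804_s_at), also called MCL, a partner that forms a complex with Mincle, read 5.92, 5.68 and 5.09 across wild-type arrays, against 10.83, 12.74 and 11.51 across Brg1 cKO arrays. The means were 5.56 ± 0.43 and 11.69 ± 0.97 (SD, n = 3), the log2 difference was 6.13 (SE 0.48, interval 5.01 to 7.25) or 70.1-fold, and the limma adjusted p was 0.00371. Its probe set type can include probes that match more than 1 transcript, as can that of Clec4n.

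Clec4e (1420330_at), Mincle itself, read 2.56, 2.53 and 2.77 across wild-type arrays, against 6.69, 8.12 and 7.16 across Brg1 cKO arrays. The wild-type values lay close together at the low end of the scale, and the nearest Brg1 cKO value was 3.92 higher. The means were 2.62 ± 0.13 and 7.32 ± 0.73 (SD, n = 3), the log2 difference was 4.70 (SE 0.35, interval 3.88 to 5.52) or 26.0-fold, and the limma adjusted p was 0.00353. The other Clec4e probe set (1420331_at) read 2.52, 2.49 and 2.54 against 3.63, 5.43 and 4.75. It showed the same separation with a smaller difference, 2.08 (SE 0.42), and its limma adjusted p was 0.126.

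Clec4n (1419627_s_at), which encodes Dectin-2, read 4.60, 3.95 and 4.48 across wild-type arrays, against 6.22, 8.08 and 7.39 across Brg1 cKO arrays. The log2 difference was 2.89 (SE 0.45, interval 1.83 to 3.95) or 7.42-fold, and the limma adjusted p of 0.054 was just outside the threshold. Its other probe set (1425951_a_at) read 3.75, 3.46 and 3.76 against 5.77, 7.86 and 7.16, a log2 difference of 3.27 (SE 0.48), and lay just inside it (limma adjusted p = 0.0435). The call for Clec4n thus turned on which of its probe sets was used, while size and direction were alike. Of the 11 probe sets of these receptors 5 rose, against 0.305% of all probe sets.

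Clec7a (1420699_at), which encodes the beta-glucan receptor Dectin-1, read 3.01, 3.37 and 3.66 across wild-type arrays, against 5.70, 8.63 and 6.87 across Brg1 cKO arrays. No values overlapped, but the 3 Brg1 cKO arrays spread over 2.93 log2 units, the widest of the 8 genes. The log2 difference was 3.72 (SE 0.66, interval 2.17 to 5.28) or 13.2-fold, with a limma adjusted p of 0.0861.

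Fpr2 (1422953_at), a receptor for formyl peptides and serum amyloid A, read 3.66, 3.53 and 3.89 across wild-type arrays, against 8.16, 10.10 and 8.59 across Brg1 cKO arrays. The gap between the groups was 4.27. The means were 3.69 ± 0.18 and 8.95 ± 1.02 (SD, n = 3), the log2 difference was 5.26 (SE 0.47, interval 4.16 to 6.36) or 38.3-fold, and the limma adjusted p was 0.00703. Its paralog Fpr-rs3 averaged 3.62 across wild-type arrays, against 3.53 across Brg1 cKO arrays (limma adjusted p = 0.931), both under the 25th percentile of the table.

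**Figure D2:**
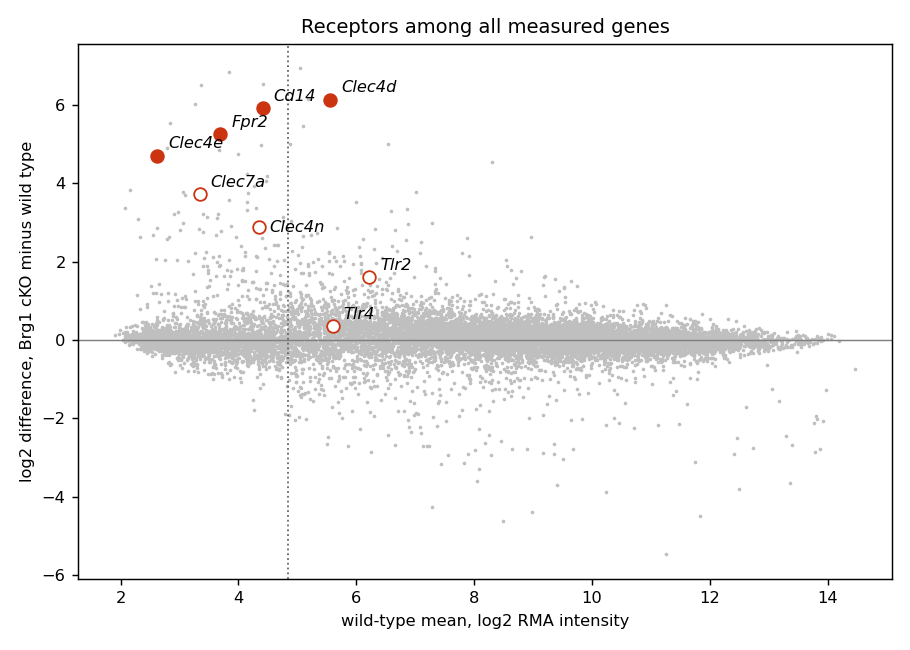
Log2 difference between Brg1 cKO and wild type (y axis) against the wild-type mean log2 intensity (x axis) for all 12393 genes in grey, with the 8 receptors in red (filled where the limma adjusted p was under 0.05). The dotted line is the 25th percentile of all values. Cd14, Clec4e, Clec4n, Clec7a and Fpr2 lie left of it, and Tlr4 lies within the band of genes near 0.

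The calls of Cd14 and Fpr2 were lost without single wild-type arrays, while the differences stayed close to their size. Without wild-type replicate 1 Cd14 differed by 5.78 and Fpr2 by 5.24 (limma adjusted p = 0.0714 and 0.0658). Without wild-type replicate 2 they differed by 5.68 and 5.18 (0.0564 and 0.0522). Leaving out these arrays lowered the calls over all probe sets from 115 to 24 and 26. Clec4n passed when Brg1 cKO replicate 1 was left out (0.0112), and Clec7a when either Brg1 cKO replicate 1 (0.0276) or 2 (0.0273) was. Clec4n also passed with array weights (0.0267), median centring (0.047), a trend with robust fit (0.0336) and the mean of its probe sets (0.0276), and Clec7a with array weights (0.036) and the trend (0.0468).

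The receptors shared an order among the Brg1 cKO arrays, given here as a description, since the same values entered the choice of genes. By the chosen probe sets, all 8 were lowest in replicate 1, intermediate in replicate 3 and highest in replicate 2. This order was found in 18.9% of all genes. The other Tlr4 probe set was lowest in replicate 3, with 4.95 against 5.15 in replicate 1. Replicate 2 was the highest of the 6 arrays in all 8, which held for 24.5% of genes. Between replicates 2 and 1 the receptors differed by 1.43 (Clec4e) to 2.93 (Clec7a) log2 units, while the median over all genes was -0.05. As differences from the wild-type mean, the median of the receptors was 3.21, 5.39 and 4.03 over the 3 Brg1 cKO arrays, and between -0.22 and 0.26 in the wild-type arrays. The genes are not independent replicates of this pattern, since all were read from the same 3 eyeballs.

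Brg1 cKO replicate 2 also stood apart over all probe sets. On the first principal component, which held 42.3% of the variance, the wild-type arrays scored -44.4 to -28.8, Brg1 cKO replicates 1 and 3 scored 19.3 and 11.9, and replicate 2 scored 75.2. Replicate 1 was the only male, with Eif2s3y at log2 11.25 against 2.10 to 2.62 in the other 5 arrays. Without replicate 2 the median difference of the receptors was 3.62, and without replicate 1 it was 4.71. The lens and retina genes Cryaa and Pax6 were high in all 6 arrays, from 12.27 to 14.01 and from 11.12 to 12.26, as a check of the eyeball label. Smarca4, which encodes Brg1, did not check the deletion: its brighter probe set differed by 0.18 and the dimmer by -0.70, with limma adjusted p-values of 0.866 and 0.598. The study reports that deletion was incomplete in many knockout embryos and that their eye defects varied in severity.

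The order 1, 3, 2 also held for 4 of 6 leukocyte markers, and not for Itgb2 and Laptm5. Among marker list medians, those of leukocytes, neutrophils, macrophages, mast cells, erythroid blood cells and skeletal muscle had this order. Those of dendritic cells, lymphocytes, lens, retina and cornea did not. The 6 pan-leukocyte genes exceeded their wild-type means by a median of 1.20, 2.47 and 1.72 log2 units over the 3 Brg1 cKO arrays. Their summed linear intensity ranged from 2304 to 3027 across wild-type arrays, against 5372 to 10988 across Brg1 cKO arrays. All 6 had every Brg1 cKO array above every wild-type array, against 8.46% of all genes. Of the 6, 1 rose: Itgb2, the beta chain of leukocyte integrins, by 2.84 (limma adjusted p = 0.00495). Ptprc, which encodes CD45, differed by 2.42. The part of leukocyte number in the receptor values was not tested.

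Of 13 neutrophil markers 11 were measured, and 2 rose, S100a8 by 4.99 and S100a9 by 4.55 (limma adjusted p = 0.0181 and 0.00935). The other 9 did not pass, and 8 of the 11 differences were positive. The list's median difference was 0.23, 2.47 and 0.56 over the 3 Brg1 cKO arrays. Its summed intensity ranged from 590 to 1155 across wild-type arrays, against 7180 to 23413 across Brg1 cKO arrays. In the Brg1 cKO arrays S100a8 and S100a9 carried most of this sum. Csf3r, the receptor for granulocyte colony-stimulating factor, differed by 2.14 (limma adjusted p = 0.127). Elane and Mpo, which encode granule proteins made in neutrophil precursors, averaged 2.46 and 2.66 across wild-type arrays, against 2.39 and 2.57 across Brg1 cKO arrays, at the low end of the scale.

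The 12 markers of macrophages and microglia had median differences of 0.20, 0.86 and 0.62 over the 3 Brg1 cKO arrays, below the neutrophil list in replicate 2 but not in replicate 3. In 5 of the 12 all Brg1 cKO arrays lay above all wild-type arrays, as in 3 of the 11 neutrophil markers and 8.46% of all genes. Their summed intensity ranged from 2571 to 3518 across wild-type arrays, against 3767 to 7087 across Brg1 cKO arrays. Fcgr1, a high-affinity IgG receptor, rose by 2.83 (limma adjusted p = 0.0248), and Csf1r, the receptor on which macrophages depend, differed by 0.68. Itgam, an integrin of both cell types, read 3.16 and 3.27 on average, at the low end of the scale. Of 6 dendritic cell markers 1 rose, Itgax by 1.71 (limma adjusted p = 0.0288). Of 8 lymphocyte markers 0 passed limma, adjusted or unadjusted, with a median of 0.11. The wild-type mean was below the 25th percentile of the table for 5 of these dendritic cell markers and 6 of these lymphocyte markers. Mast cell markers had a median of -0.62, and lay at -1.99, 0.05 and -0.13 over the 3 Brg1 cKO arrays. The parts of these cell types in the receptor values were not tested.

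**Figure D3:**
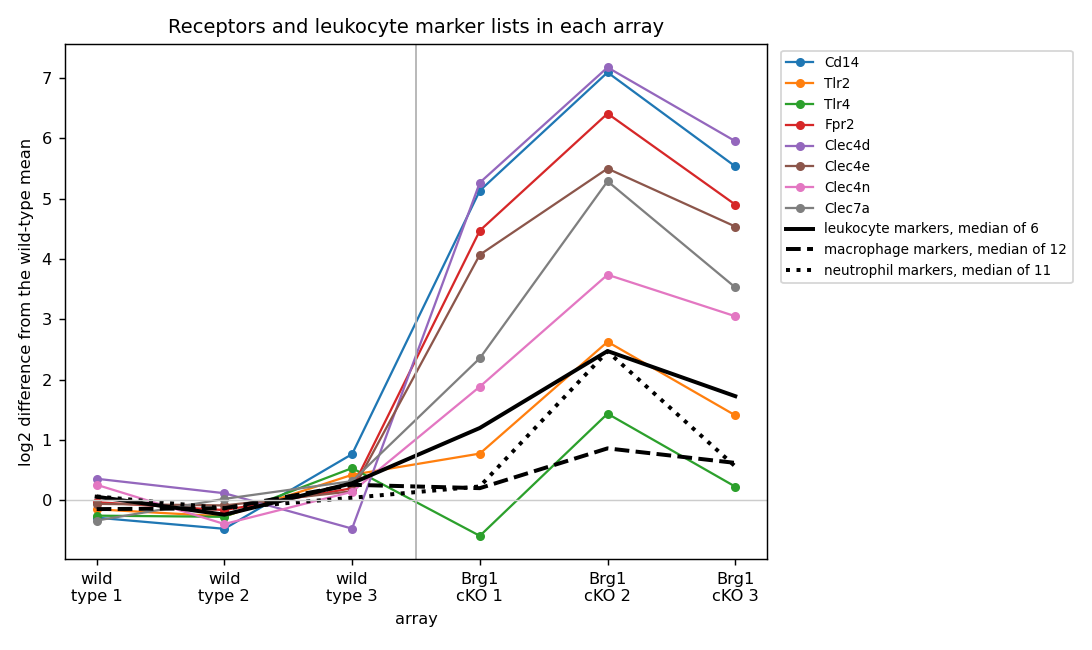
Log2 difference of each array from the wild-type mean (y axis) for the 8 receptors (coloured) and for the medians of 3 marker lists (black), with the 6 arrays on the x axis. Lines only join the values of 1 gene or list, since replicates have no order. In every Brg1 cKO array 6 receptors lie above the leukocyte median, whose values are 1.20, 2.47 and 1.72, while Tlr4 lies below it.

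Tissue markers also differed between the groups. All 6 measured lens genes were lower in every Brg1 cKO array than in every wild-type array, with a median difference of -1.79. Such a separation downward held for 791 of all 12393 genes. By limma 0 of the lens genes passed the threshold, and 6 had an unadjusted p under 0.05. Template matching called 4 of them, against 820 of all 22626 probe sets in either direction. Of 7 markers of cornea and surface epithelium, with a median difference of -0.60, 1 fell: Krt12, a keratin of the corneal epithelium, which fell by 3.71 (limma adjusted p = 0.00194). The other 6 did not pass. Krt15 and Epcam were lower by 2.91 and 1.08 (limma adjusted p = 0.129 and 0.517), with all Brg1 cKO arrays below all wild-type arrays. Krt14, a keratin of basal epithelial cells, differed the other way by 0.87, with all Brg1 cKO arrays above all wild-type arrays. In the rest the groups overlapped. The median of the lens list was -2.21, -0.63 and -2.47 over the 3 Brg1 cKO arrays, so the array with the highest receptor values had the smallest lens difference. Whether loss of lens tissue has a part in the receptor values was not tested.

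The other genes of the receptors' pathways were taken from 9 lists of partners, signalling proteins, ligands and targets. Of 104 such genes with a probe set 6 rose and 0 fell, against 0.428% and 0.266% of all genes. At an unadjusted limma p under 0.05, 44 were higher and 0 lower, against 5.56% and 3.74% of all genes. Only targets and ligands were among the 6. They are the filled circles in the ligand and target rows of the plot of list differences.

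Of 16 targets and feedback inhibitors 3 rose, and the median difference was 2.23. In 14 of them all Brg1 cKO arrays lay above all wild-type arrays, against 8.46% of all genes. Il1b, which encodes the cytokine IL-1 beta, read 3.89, 3.94 and 3.71 across wild-type arrays, against 9.59, 11.90 and 10.58 across Brg1 cKO arrays, a log2 difference of 6.84 (limma adjusted p = 0.0036). Cxcl2, a chemokine that attracts neutrophils, rose by 6.50 (limma adjusted p = 0.0217), and Il1rn, the antagonist of the IL-1 receptor, by 4.98 (0.021). Of the cytokines that these receptors induce, Il6 differed by 2.63 (limma adjusted p = 0.158), and Tnf had means of 3.31 in wild-type and 4.31 in mutant eyeballs (0.439). Il1b had the same order of Brg1 cKO arrays as the receptors.

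Of 12 endogenous ligands 3 rose. Saa3, an acute phase protein of the family that Fpr2 and Tlr2 bind, read 3.21, 3.25 and 3.31 across wild-type arrays, against 8.56, 9.57 and 9.70 across Brg1 cKO arrays. Its log2 difference was 6.02 (limma adjusted p = 0.000686), and unlike the receptors it was highest in Brg1 cKO replicate 3. The others were S100a8 and S100a9, which bind TLR4 and are also on the neutrophil list. Anxa1, a ligand of formyl peptide receptors, read 11.69 and 11.64 on average and differed by -0.05 (limma adjusted p = 0.979).

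In the other 7 lists 0 of 76 genes passed the limma threshold, while 25 were higher at an unadjusted p under 0.05. By template matching, run here with the thresholds the study states, 12 were higher. It called 820 of all 22626 probe sets in either direction. The study reports a larger number of changed genes by these thresholds, and the reason for the difference was not examined. Among 8 other Toll-like receptors the median difference was 0.50, and 7 of them had a wild-type mean below the 25th percentile of the table. The largest differences were those of Tlr6 with 1.64 and Tlr1 with 1.47, which both pair with TLR2. These were the 2 with all Brg1 cKO arrays above all wild-type arrays, against 8.46% of all genes. Among 12 co-receptors, adaptors and kinases the median was 0.08, with Lbp, which carries lipopolysaccharide to CD14, at 1.41 (limma adjusted p = 0.449) and Myd88 at 1.30 (0.473). Among 16 other C-type lectin receptors of myeloid cells the median was 0.19, and Clec5a, which couples to DAP12, differed by 1.78 (0.222). Of these 16 genes, 10 had a wild-type mean below the 25th percentile.

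Of 9 measured genes that carry the C-type lectin signal, 7 had all Brg1 cKO arrays above all wild-type arrays, against 8.46% of all genes. The median over the 9 was 1.15. Tyrobp, which encodes DAP12, differed by 1.66 (limma adjusted p = 0.228), Vav1, an exchange factor downstream of SYK, by 1.46 (0.257), Syk by 1.42 (0.334) and Fcer1g, the FcR gamma chain, by 1.15 (0.391). Among 11 other innate sensors the median was 1.06, and Trem1, an amplifier of receptor signals on myeloid cells, differed by 2.86 (0.155) and Nlrp3, the inflammasome sensor, by 2.64 (0.247). Among 10 other chemoattractant receptors Ccr1 differed by 3.21 (0.0845) and Ccr2, the receptor of inflammatory monocytes, by 2.06 (0.198), with a median of 0.56. Of these 10 receptors, 8 had a wild-type mean below the 25th percentile of the table. Among 10 genes of chemoattractant receptor signalling and of the phagocyte oxidase the median was 0.21, with Ncf4 at 2.01 (0.203) and Cybb at -0.14 (0.909). Cybb averaged 2.76 across wild-type arrays, against 2.62 across Brg1 cKO arrays, at the low end of the scale.

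**Figure D4:**
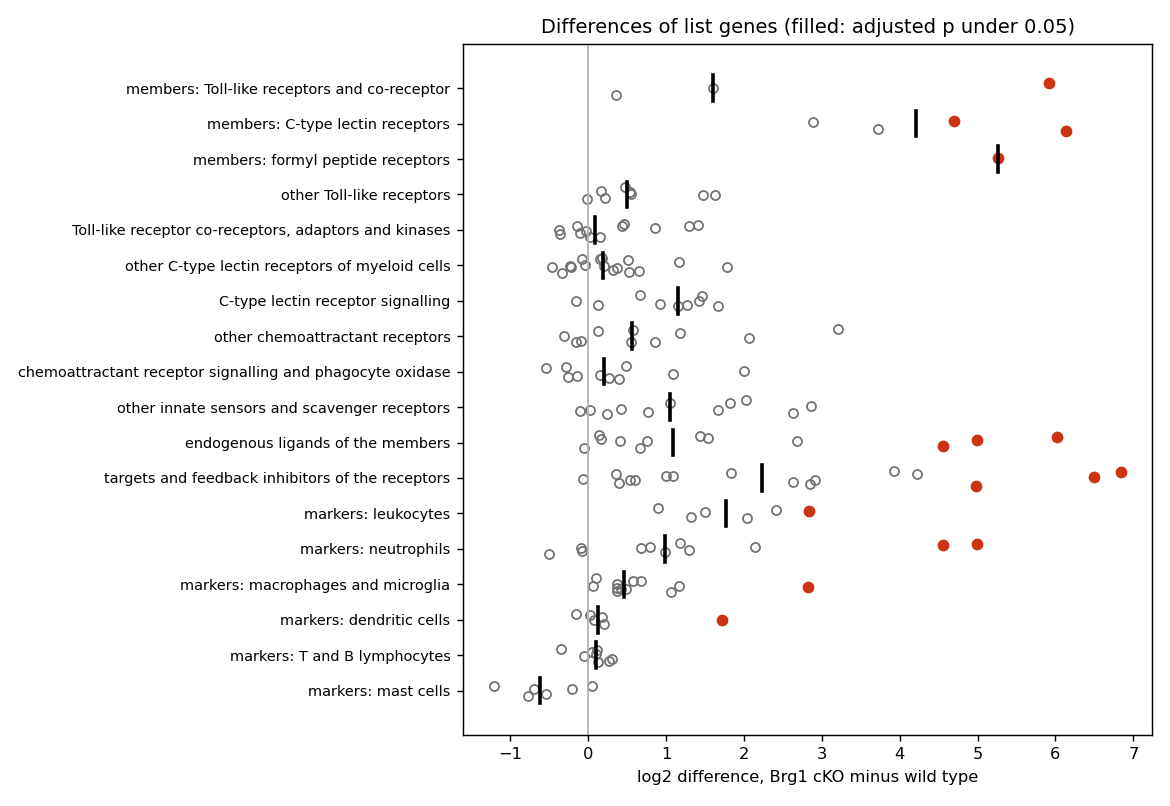
Log2 differences between Brg1 cKO and wild type (x axis) of the receptors in 3 classes, of the 9 pathway lists and of 6 blood cell marker lists (y axis), 1 circle a gene. Filled circles passed a limma adjusted p under 0.05 and black bars are list medians. Pathway genes that passed are in the rows of ligands and targets, and lymphocyte markers lie between -0.34 and 0.31.

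Genes outside the group whose profiles lay nearest were found by the root mean square difference of log2 values, each centred on its wild-type mean, over the 6 arrays. Nearest to the median of the receptors were Mmp12, a macrophage elastase (0.30), the interferon-induced Mx1 (0.31), S100a9 (0.34), the chemokine Ccl4 (0.39) and the chemokine-binding receptor Ccrl2 (0.43). For single receptors the nearest was Serpina3n, an acute phase protease inhibitor, for both Cd14 (0.38) and Fpr2 (0.23). It was S100a9 for Clec4e (0.24), Ccl9 for Clec4n (0.15), Ccrl2 for Clec7a (0.15) and the matrix metalloprotease Mmp3 for Clec4d (0.45). Il11 was nearest to Tlr2 (0.09), and Cox6a2, a subunit of cytochrome oxidase in striated muscle, to Tlr4 (0.10). Skeletal muscle markers had medians of -0.59, 0.59 and 0.41 over the 3 Brg1 cKO arrays, and Tlr4 lay at -0.59, 1.43 and 0.22.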

How the data were processed

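Total RNA of individual P1 eyeballs (50 ng per sample, 3 Brg1 cKO and 3 wild type) was amplified (NuGEN Ovation), labelled with biotin and hybridised to Affymetrix mouse genome arrays. The deposited values are linear intensities that the authors made with RMA, per the labels (version not given in the sources used here), which adjusts background, equalises arrays and summarises probes. Equalising arrays hides global shifts, and dim probe sets understate folds. The intensities, from 3.306 to 28033.1, were converted to log2 here. The table holds no detection calls.

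Groups and replicate numbers came from the labels, and the series calls the samples biological replicates. Of 22690 rows, 64 control rows were left out. The platform annotation, which can be old, named 1 gene for 20380 probe sets, several for 691 and none for 1555. Identifiers of 20351 matched RefSeq.

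Genotypes were compared with limma 3.58.1 in R 4.3.3 (genotype only, empirical Bayes, two-sided), with Benjamini-Hochberg adjustment over all 22626 probe sets and a threshold of 0.05. The fit was tested on simulated data. No set test was made. The text names all receptors and Smarca4, up to 4 genes with the smallest p in each list, and the nearest profiles. Fcer1g, Il6, Tnf, Anxa1, Fpr-rs3, Cybb, Itgam, Laptm5, Elane, Mpo, Cryaa, Pax6 and the sex-linked gene were added after their values were seen. Receptors and lists were chosen with earlier results of these data known, and some lists share genes. Alternatives covered scaling, a value of 16 added before log2, a filter on low values, trend and array weights, and a replicate block. They also covered leaving out each array, averaging probe sets, and template matching with a fold over 1.5, the thresholds the study states. Promoter windows and gene order are from RefSeq GRCm38.p6.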

Additional observations from a re-analysis of the deposited data

How the results depend on the processing

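With 16 added before log2, 1 receptor (Clec4d) passed in place of 4 and the median difference was 2.78 in place of 4.21, which shrinks differences of dim probe sets by construction. Leaving out single arrays gave 2 to 6 receptors past the threshold, with 2 without wild-type replicate 1 and 2 without wild-type replicate 2 (Clec4d and Clec4e), and medians from 3.62 to 4.71. Other settings gave 4 receptors (filter on low values, quantile normalization), 5 (median centring, mean of probe sets) or 6 (array weights, trend with robust fit, template matching). The filter used the mean over all 6 arrays, so receptors dim in wild type stayed in through their Brg1 cKO values. Its count is therefore no check on low signal. Clec4d passed under all 14 alternatives that give it a limma test. The Tlr4 difference ranged from -0.18 (without Brg1 cKO replicate 2, reversed) to 0.83 (without replicate 1). Of the pathway genes 6 passed, against 3 with 16 added, 11 with array weights, 10 with an intensity trend and robust fit, 10 with the mean of a gene's probe sets, 2 with the replicate block, 27 by template matching, and 2 to 11 with single arrays left out. Of all probe sets 115 passed, against 32 with 16 added, 190 with array weights, 45 with the replicate block, 820 by template matching, and 24 to 216 with single arrays left out. Fewer arrays lower the degrees of freedom, and otherwise the cause was not tested. With the replicate block the same 4 receptors passed. Deviations of arrays with the same number correlated by 0.06, 0.082 and 0.125, and no wild-type array correlated best with its own number, so the numbers were not taken to pair the samples. Low signal limits the folds of the 5 receptors whose wild-type mean was below the 25th percentile, and 3 arrays a group limit all precision.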
